A study of Mus musculus with 8 samples.

Results

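The Cyp2d family comprises cytochrome P450 enzymes, and 8 of its mouse genes were followed here in liver: Cyp2d9, Cyp2d10, Cyp2d11, Cyp2d12, Cyp2d22, Cyp2d26, Cyp2d34 and Cyp2d40. They were taken by gene name from the array files, out of 34779 gene names on the array, and are represented by 9 probes of 60 bases each, 1 per gene and 2 for Cyp2d34. Liver RNA was compared between NZO mice (NZO/HiBomDife), a strain that becomes obese and diabetic, and lean, diabetes-resistant B6 mice (C57BL/6). All animals were males of 6 weeks of age that received a high-fat diet with 45% fat, so the diet is common to both strains. There were 4 mice per strain with 1 array per mouse, named by strain and mouse number: NZO 007, 003, 009 and 011, and B6 011, 010, 015 and 009. The labels mention no pooling of animals, and the study compares inbred strains, which differ at many loci at once. The arrays were hybridised with Cy3-labeled material in a single colour, and each level below is the log2 processed signal of a probe minus the 75th percentile of its array, so that a level of 0 is the brightness at that percentile.

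CYP2D enzymes are haem-containing monooxygenases of the endoplasmic reticulum, which receive electrons from cytochrome P450 reductase and, for some substrates, from cytochrome b5. In humans, the only functional gene of the family encodes CYP2D6, an enzyme known for the oxidation of many drugs, whereas in the mouse the family was expanded by tandem duplication into a cluster of similar genes. Several of the mouse genes are strongly expressed in hepatocytes, and Cyp2d9, which encodes a testosterone hydroxylase, is a classical male-biased liver gene under the control of the pulsatile secretion of growth hormone.

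The genes lie on chromosome 15. In the RefSeq annotation of GRCm38.p6 the cluster spans 424 kb, from 82370527 (start of Cyp2d22) to 82794452 (end of Cyp2d26), in the order Cyp2d22, Cyp2d11, Cyp2d10, Cyp2d9, Cyp2d12, Cyp2d34, Cyp2d40 and Cyp2d26. Because the genes are paralogs, the probe sequences determine which transcript is read. The probes of Cyp2d9, Cyp2d12, Cyp2d22 and 1 of Cyp2d34, which start within the first 900 bases of their transcripts and contain an open reading frame, are shown, with capitals for a run of at least 10 bases shared with another Cyp2d probe.
Cyp2d9: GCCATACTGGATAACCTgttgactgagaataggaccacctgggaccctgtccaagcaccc
Cyp2d34: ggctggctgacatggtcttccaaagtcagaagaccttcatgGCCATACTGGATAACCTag
Cyp2d12: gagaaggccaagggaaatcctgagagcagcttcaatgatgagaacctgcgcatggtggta
Cyp2d22: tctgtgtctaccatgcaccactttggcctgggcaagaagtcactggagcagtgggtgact
The probe of Cyp2d9 was placed by the array files at chr15:82285582-82285641 of mm9 (plus strand), that of Cyp2d34 at chr15:82447966-82448025 (minus strand) and that of Cyp2d22 at chr15:82204377-82204436 (minus strand). The 60 bases of the Cyp2d12 probe extended over 243 genomic bases (chr15:82388259-82388501, plus strand), i.e. they join exons. Among the 55 pairs formed by the 9 member probes and the probes of the pseudogenes Cyp2d13 and Cyp2d37-ps, a run of 10 or more identical bases occurred in 1 pair: the first 17 bases of the Cyp2d9 probe are the bases from position 42 onwards of the Cyp2d34 probe. None of the other 55670 probes shared a run of 18 bases with a Cyp2d probe on either strand (0 probes). Whether paralogous transcripts bind a probe despite mismatches, and whether NZO alleles differ from the probe sequences, was not tested.

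Each of the 9 probes stood well above background on each of the 8 arrays, and 0 were saturated. Their mean levels stood between the 90.6th (Cyp2d34, probe at base 762 of its transcript) and the 99.8th percentile (Cyp2d11 and Cyp2d26) of all probes on the array. The sample label was checked with hepatocyte markers: Alb, Ttr, Apoa1, Cps1 and Tat were above background on all 8 arrays, 0 of these 5 passed the thresholds between strains, and Apoa1 had a log2 fold change of 0.00 (adjusted p = 0.989, limma). Among cells other than hepatocytes, 2 of 4 tested cholangiocyte markers were lower in NZO (Sox9, log2 fold change -1.47, adjusted p = 0.00886; Spp1, -0.89, 0.0313) and 2 of 4 red blood cell markers were higher (Hba-a1, 1.00, 0.0183; Alas2, 0.90, 0.0023). The summed signal of the red blood cell markers, of which Hba-a1 was the brightest, was 366, 318, 470 and 293 times the 75th percentile in the NZO mice and 208, 165, 155 and 197 times in the B6 mice, in the order of arrays given above. The 5 cholangiocyte markers summed to a mean of 2.23 in NZO and 4.33 in B6, with Spp1 as the brightest. Leukocyte markers, with Cd3e as the brightest, summed to 18.8, 10.8, 11.4 and 11.3 in the NZO mice and to 12.2, 10.8, 11.9 and 13.4 in the B6 mice, so that only NZO 007 lay above the B6 range. Of these 5 markers, 1 was lower in NZO (Itgax, adjusted p = 0.0358, limma). The others did not pass both thresholds and differed in direction, with log2 fold changes of -0.52 (Ptprc), -0.42 (Cd68), 0.33 (Cd3e) and 0.41 (Lyz2). Itgax was above background on 2 of 4 NZO arrays, so that no exact fold is given. Adipocyte markers, with Car3 as the brightest and Adipoq, Plin1 and Lep above background on 0 arrays, summed to means of 597 and 432, with 0 of 3 tested passing. The sum rested on Car3, with mean levels of 9.21 in NZO and 8.74 in B6. Fabp4 was at 1.82 and 2.12 and Cidec at -2.37 and -2.79. The sum is thus not read as an amount of adipocytes. The mean sums in NZO and B6 were 1.84 and 1.56 for exocrine pancreas, 0.396 and 0.618 for kidney proximal tubule and 4.29 and 2.06 for skeletal muscle, and 0 of the 7 tested genes of these lists passed. The muscle sum was 16.4 in NZO 007, where Myh4 (level 2.86) and Acta1 (2.81) were the brightest of the 4 muscle markers, and at most 5.49 (B6 010) on the other arrays. The part of these other cells in the Cyp2d results was not tested, and in whole liver fewer cells of a type cannot be told apart from less RNA per cell.

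No Cyp2d probe differed between the strains by the thresholds used, namely an adjusted p of 0.05 over all probes together with a difference of 0.7 on the log2 scale upwards or downwards. With limma, 0 of 9 probes were higher and 0 of 9 lower in NZO. Of all 27643 probes tested, 4.34% were higher and 5.28% were lower. Counts of 0 among 9 probes lie near these shares and do not set the family apart. At an unadjusted p of 0.05, 1 probe passed with limma (Cyp2d40) and 0 with the methods' t-test, and 0 combined such a p with the fold threshold. The confidence intervals show what sizes remain possible. The 95% interval of the difference lay within 0.7 in both directions for 8 of the 9 Cyp2d probes, i.e. for 7 of the 8 genes, and for 53.2% of all probes tested. The latter share covers bright and dim probes alike and was not taken among probes as bright as those of Cyp2d.

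**Figure D1:**
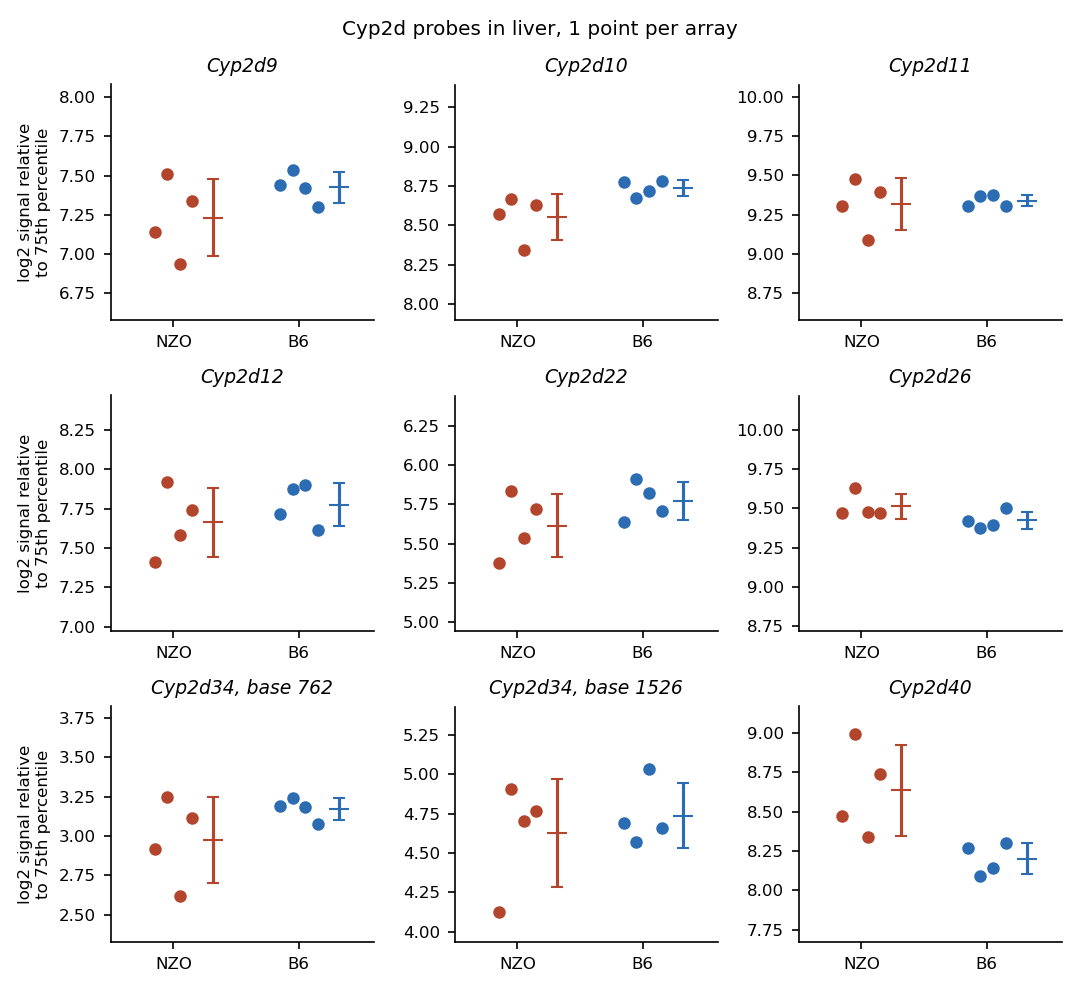
Level of each Cyp2d probe (log2 signal relative to the 75th percentile of the array) of liver, NZO beside B6, with 1 point per array and the mean ± SD of 4 arrays beside the points. Each panel spans 1.5 log2 units around its own mean and has its own axis; the points of the strains are separate in the panels of Cyp2d40 and, by a margin smaller than the symbols, Cyp2d10.

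Cyp2d9, the testosterone hydroxylase, had levels of 7.14, 7.51, 6.94 and 7.34 in the NZO mice 007, 003, 009 and 011 and of 7.44, 7.54, 7.42 and 7.30 in the B6 mice 011, 010, 015 and 009. The strains overlapped, with the 2 lowest arrays both from NZO. The log2 fold change was -0.19 ± 0.14 (SE, n = 4 per strain; limma, adjusted p = 0.408) with a 95% interval from -0.51 to 0.12, i.e. from 0.704 to 1.09 times the B6 signal.

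Cyp2d10 and Cyp2d11 lie between Cyp2d22 and Cyp2d9. Cyp2d10 reached 8.57, 8.67, 8.34 and 8.63 in NZO and 8.77, 8.67, 8.72 and 8.78 in B6. All NZO arrays were below all B6 arrays, although the highest of the former and the lowest of the latter are equal after rounding; for this and 10.7% of all probes tested the NZO arrays were the lower ones without overlap. The difference of -0.18 ± 0.10 (SE) did not pass (adjusted p = 0.281 by limma, 95% interval -0.42 to 0.05).

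Cyp2d11 was at 9.30, 9.47, 9.09 and 9.39 in NZO and at 9.31, 9.37, 9.37 and 9.31 in B6. The NZO mice lay on both sides of the B6 mice. With -0.02 ± 0.11 (SE; adjusted p = 0.913 by limma) it had the smallest difference of the 9 probes, and the 95% interval reached from -0.27 to 0.22.

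Cyp2d22 is often compared with human CYP2D6 for its substrates. Its levels were 5.38, 5.83, 5.53 and 5.72 in NZO and 5.64, 5.91, 5.82 and 5.71 in B6. The strains overlapped, and the log2 fold change was -0.15 ± 0.13 (SE; limma, adjusted p = 0.477; 95% interval -0.44 to 0.14).

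Cyp2d12, located on the other side of Cyp2d9, showed levels of 7.41, 7.92, 7.59 and 7.74 in NZO and of 7.71, 7.88, 7.90 and 7.62 in B6, thus the highest and the lowest value were both found in NZO. The difference was -0.11 ± 0.13 (SE; limma, adjusted p = 0.632; 95% interval -0.42 to 0.20).

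Cyp2d34 was read at 2 positions. The probe at base 762, which shares 17 bases with the Cyp2d9 probe, had levels of 2.92, 3.25, 2.62 and 3.11 in NZO and of 3.19, 3.24, 3.18 and 3.08 in B6. The probe at base 1526 had levels of 4.13, 4.91, 4.70 and 4.76 in NZO and of 4.69, 4.57, 5.03 and 4.66 in B6. Both overlapped between the strains, with log2 fold changes of -0.20 ± 0.14 (SE, adjusted p = 0.414) and -0.11 ± 0.19 (SE, adjusted p = 0.739) by limma, but the arrays took a different order: NZO 009 was the lowest of all arrays at the first position and NZO 007 at the second. Accordingly, the deviations of the 2 Cyp2d34 probes from their strain means correlated with an r of 0.28 over the 8 arrays, while those of the probe at base 762 correlated with Cyp2d9 with an r of 0.98 and with Cyp2d11 with an r of 0.98. These are descriptions of 8 arrays that share their scaling.

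Cyp2d26, at the end of the cluster, had levels of 9.47, 9.63, 9.48 and 9.47 in NZO and of 9.42, 9.37, 9.40 and 9.50 in B6. Of the NZO mice, 3 were nearly identical and 003 stood above them. The log2 fold change was 0.09 ± 0.09 (SE; limma, adjusted p = 0.553; 95% interval -0.11 to 0.29), and its sign turned to -0.15 in the deposited table, which is not scaled between arrays.

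Cyp2d40, its neighbour, was the member with the largest difference. Its levels were 8.47, 8.99, 8.34 and 8.74 in NZO and 8.27, 8.09, 8.14 and 8.30 in B6. All NZO arrays were above all B6 arrays, as for 11.3% of all probes tested. The log2 fold change was 0.44 ± 0.15 (SE), i.e. 1.35-fold, with an adjusted p of 0.102 by limma. The 95% interval, from 0.09 to 0.78, includes the threshold of 0.7. Hence the data neither reach the threshold nor exclude a difference of that size for this gene.

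**Figure D2:**
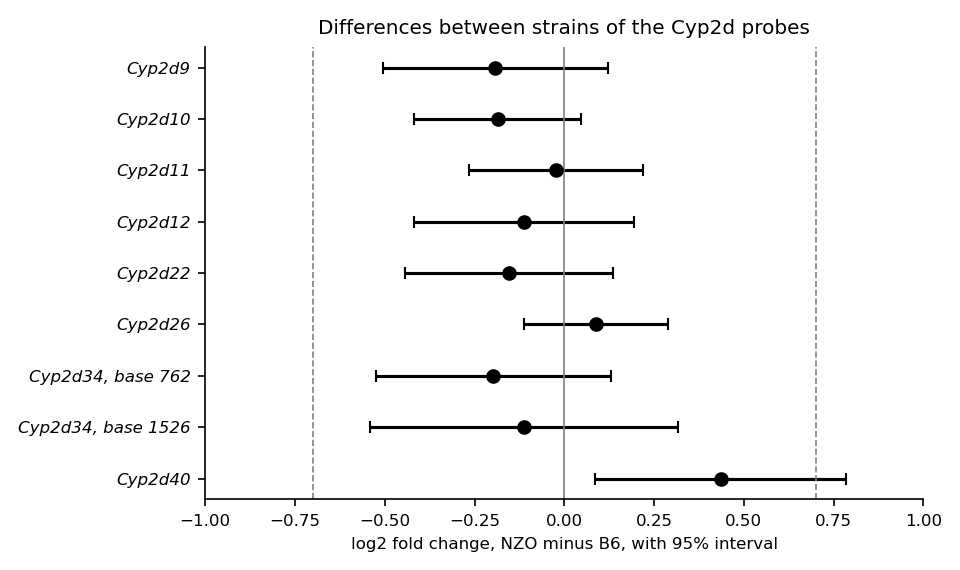
Log2 fold change (NZO minus B6, x axis) of each Cyp2d probe with its 95% interval from limma, 4 arrays per strain, and dashed lines at the threshold of 0.7 in either direction. The interval of Cyp2d40, from 0.09 to 0.78, crosses a dashed line, and the other 8 stay between them.

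The arrays came from 5 slides scanned on 2 days. Slide 1 held NZO 003, B6 010 and B6 015, and here Cyp2d40 was higher in NZO by 0.87 on the log2 scale. For the first scan day (3 NZO and 2 B6 arrays) the difference was 0.57 and for the second (1 NZO and 2 B6 arrays) 0.19. With the slide as a fixed term, which leaves slide 1 as the only slide with both strains, Cyp2d40 was at 0.87. For the other 8 probes, the values within slide 1 ranged from -0.03 (Cyp2d22 and Cyp2d10) to 0.25 (Cyp2d26). Those of the second scan day were lowest for the Cyp2d34 probe at base 1526 (-0.55) and highest for Cyp2d26 (0.01).

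To compare the members independently of the array scaling, each probe was set against the mean of the other 8 Cyp2d probes of the same array. Relative to them, Cyp2d40 was at 1.68, 1.84, 1.55 and 1.72 in the NZO mice and at 1.25, 1.02, 1.04 and 1.31 in the B6 mice, a difference of 0.55. For the other 8 probes the difference in the same ratio lay between -0.17 (Cyp2d34 at base 762) and 0.16 (Cyp2d26). As Cyp2d40 was singled out after its values were seen, no test is given. The ratio restates the levels given above on another scale, and nothing further is drawn from it.

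On the scaled levels, the members deviated together within a strain, mainly in NZO. In NZO 003 all 9 probes were above the mean of the strain and in NZO 011 8 of 9, whereas in NZO 007 and NZO 009 only 1 of 9 was above it in each case. The median deviation of the 9 probes was 0.26, 0.10, -0.09 and -0.21 in these mice, in that order. In the B6 mice 3 to 5 of the 9 probes were above the strain mean, and the median deviations lay between -0.06 (B6 009) and 0.03 (B6 010).

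The median SD of the 9 probes was 0.22 in NZO and 0.10 in B6. The SD was larger in NZO for 9 of 9 probes, compared with 64.1% of all probes tested. This depended on the scaling, since in the processed signal without scaling only 5 of 9 probes had the larger SD in NZO (58.6% of all probes). The 75th percentiles that were subtracted were 124, 119, 142 and 119 in the NZO mice and 159, 140, 136 and 156 in the B6 mice, thus NZO 009, with low Cyp2d levels, had the highest percentile of its strain. Without scaling, NZO 009 had the highest processed signal of its strain for Cyp2d26 (101302) and for Cyp2d34 at base 1526 (3689). It had the lowest of its strain for Cyp2d9, Cyp2d10, Cyp2d11 and Cyp2d34 at base 762. The joint deviation thus describes the scaled levels, and the role of the percentile in it was not tested.

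**Figure D3:**
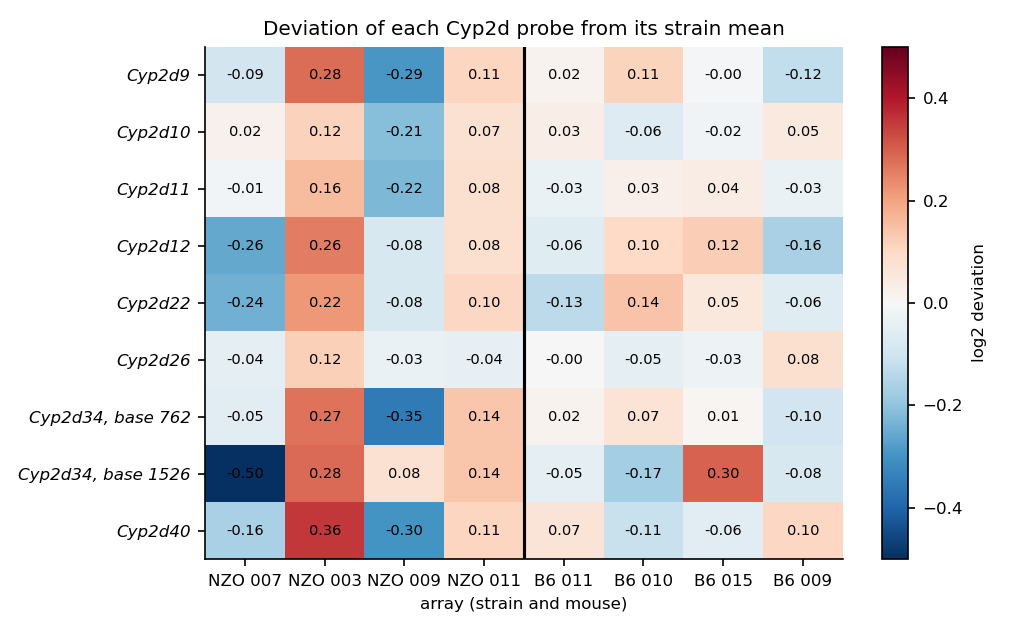
Deviation of the scaled level (log2, colour and printed value) of each Cyp2d probe (rows) from the mean of its strain on each array (columns, NZO left and B6 right of the line). The column of NZO 003 holds only positive values and those of NZO 007 and NZO 009 1 positive value each, while the B6 columns are mixed.

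Without scaling, the processed signal of Cyp2d10 was 47395, 48413, 46012 and 46932 in NZO and 69433, 57335, 57439 and 68597 in B6. These raw differences include the brightness of the whole array: without scaling the median of all probes tested shifted by -0.22, compared with 0.01 after scaling. In this unscaled signal 8 of 9 Cyp2d probes were lower in NZO, and 0 passed both thresholds.

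Other genes whose expression resembled that of the members were taken from 20129 genes by Pearson's r over the 8 arrays, as a description. For Cyp2d9, the most similar patterns belonged to the array features NAP092544-001 (r = 0.97), NAP030204-1 (0.96) and NAP060545-1 (0.96), which were not matched to a gene. For Cyp2d22, they belonged to an unnamed transcript on chromosome 17 (0.98), Smad3, a signal transducer of TGF-beta (0.97), and Rttn, a centrosomal protein (0.97). An r over 0.9 was reached by 43 genes for Cyp2d9 and by 56 for Cyp2d22, on 8 arrays that share their scaling. No link between these genes and the members is drawn from it. The mean levels of Rttn, -4.25 in NZO and -4.00 in B6, are close to the lowest levels above background on these arrays (-4.63 to -3.95), so that its likeness rests on values near background. The unnamed transcript on chromosome 17 was also dim, with mean levels of -3.41 in NZO and -3.22 in B6.

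The start regions of the genes were compared as a description, and their part in the joint deviation of the scaled levels was not tested. RefSeq start windows of GRCm38.p6, from 250 bases before to 50 bases after the annotated start, were matched by symbol for 5 of the 8 members, and Cyp2d12, Cyp2d22 and Cyp2d34 were not among them. Windows of Cyp2d9 and Cyp2d11 were identical at 94.0% of their aligned bases, those of Cyp2d9 and Cyp2d40 at 81.9% and those of Cyp2d9 and Cyp2d26 at 65.9%. These percentages leave out gaps, which took up 32, 126 and 78 bases in these alignments, in that order. All 5 windows contained the run CTTTATAAGG, which was found on either strand in 0.0974% of 32851 start windows of all genes, and it overlaps the longer run CACTCCTTTATAAGG of Cyp2d9, Cyp2d10, Cyp2d11 and Cyp2d40 (0.0122%). Both runs were derived from these windows, and their rarity is thus a description. The segment is shown for the members in which it lies outside the annotated gene, with the shared 15 bases in capitals.
Cyp2d9: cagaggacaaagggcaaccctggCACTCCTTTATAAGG
Cyp2d11: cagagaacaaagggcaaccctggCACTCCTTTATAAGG
Cyp2d40: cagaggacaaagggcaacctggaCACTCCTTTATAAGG
The positions are chr15:82452320-82452357 (plus strand) for Cyp2d9, chr15:82394057-82394094 (minus strand) for Cyp2d11 and chr15:82764205-82764242 (minus strand) for Cyp2d40. The segment ends 20 bases before the annotated start of Cyp2d9, 35 before that of Cyp2d11 and 83 before that of Cyp2d40. The letters TTCNNNGAA, the pattern known for STAT5, were found in 0 of these 5 windows and in 8.30% of all start windows.

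Genes that supply P450 enzymes with electrons and haem were examined next. Of 8 genes tested, 1 was higher and 0 were lower in NZO, beside 4.43% of all 20139 genes higher and 5.01% lower, and the median log2 fold change was -0.18 (0.03 for all genes). The gene that rose was Alad, which encodes the second enzyme of haem synthesis. Its levels were 5.81, 6.05, 5.95 and 5.87 in NZO and 4.91, 4.91, 4.96 and 5.06 in B6 (log2 fold change 0.96, adjusted p = 0.000294, limma); a dimmer probe of Alad gave 0.73 (adjusted p = 0.275). On the same arrays the red blood cell markers Alas2 (0.90), which encodes the first enzyme of haem synthesis in erythroid cells, and Hba-a1 (1.00) were higher in NZO, and their part in the difference of Alad was not tested. The value nearest to the median of the list belonged to Cyb5b, a mitochondrial cytochrome b5 (-0.16, adjusted p = 0.359). Of the other genes of the list, 2 are named after their values were seen. Cyb5a was lower in NZO (-0.40, adjusted p = 0.0262, limma) and Cyb5r3 higher (0.55, adjusted p = 0.0105, limma), both short of the fold threshold.

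Among regulators of Cyp2d and of sex-biased liver genes, 2 of 15 tested were higher and 0 lower (median 0.09). Igf1, the growth factor induced by growth hormone, had levels of 7.73, 7.84, 7.61 and 7.69 in NZO and of 7.08, 6.99, 6.72 and 6.77 in B6 (log2 fold change 0.83, adjusted p = 0.00184, limma). Of its 5 probes, 4 had log2 fold changes between 0.83 and 1.34 and the other had 0.24 (adjusted p = 0.791). The GA-binding protein Gabpa was nearest to the median (0.09, adjusted p = 0.725). The count of regulators higher in NZO was smaller under 11 of 24 alternatives, and 1 regulator passed without any 1 of the 4 NZO mice.

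Since Cyp2d9 is male-biased, other sex-biased liver genes were compared. In the male-biased list without Cyp2d, 2 of 11 tested genes were higher and 1 lower (median 0.09). The fatty acid hydroxylases Cyp4a12a and Cyp4a12b, whose near-identical transcripts may share signal, rose by log2 fold changes of 1.30 and 1.32 (adjusted p = 0.00115 and 0.00193, limma). The complement component C6 fell by 0.74 (adjusted p = 0.0405), and Hsd3b5, a steroid dehydrogenase, was nearest to the median (0.09, adjusted p = 0.722). The call of C6 was lost under 14 of 24 alternatives, among them 7 of the 8 fits that each left out 1 mouse (all but B6 015). Mup20, a major urinary protein named after its values were seen, did not pass with its brightest probe (-0.18, adjusted p = 0.297), whereas its other probe had a log2 fold change of -1.85 (adjusted p = 0.000398). The 2 probes thus disagree, and transcripts of the near-identical Mup genes may share their signal.

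In the female-biased list, 7 of 9 tested genes were higher and 1 lower. The counts rest partly on genes that entered the test because they were above background in NZO only. With the test limited to probes above background on all 8 arrays, 3 were higher and 1 lower. No median is given for this list, since it falls on Cyp2b9, which was above background on 0 of 4 B6 arrays. Akr1c18, a progesterone-metabolising reductase, had levels of 4.58, 4.81, 4.83 and 4.52 in NZO and of -1.28, -1.23, 0.57 and -1.89 in B6 (log2 fold change 5.64, adjusted p = 0.000117). The steroid hydroxylases Cyp3a41b and Cyp3a16, again similar paralogs, had log2 fold changes of 5.51 and 2.84 (adjusted p = 2.89e-06 and 8.24e-05). Cyp3a44 was at least 63.5-fold, Cyp2b9 at least 6.39-fold and A1bg at least 4.24-fold higher, with 0 of 4 B6 arrays above background for each. Such bounds set each B6 array to its own value or, if higher, to the lowest level above background on that array. Cyp2a4 fell by 1.29 (adjusted p = 0.0116), with a second probe at -1.31, and its call was lost under 3 of 24 alternatives. These differences stood in the same arrays in which the interval of the male-biased Cyp2d9 lay within 0.7 in both directions.

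**Figure D4:**
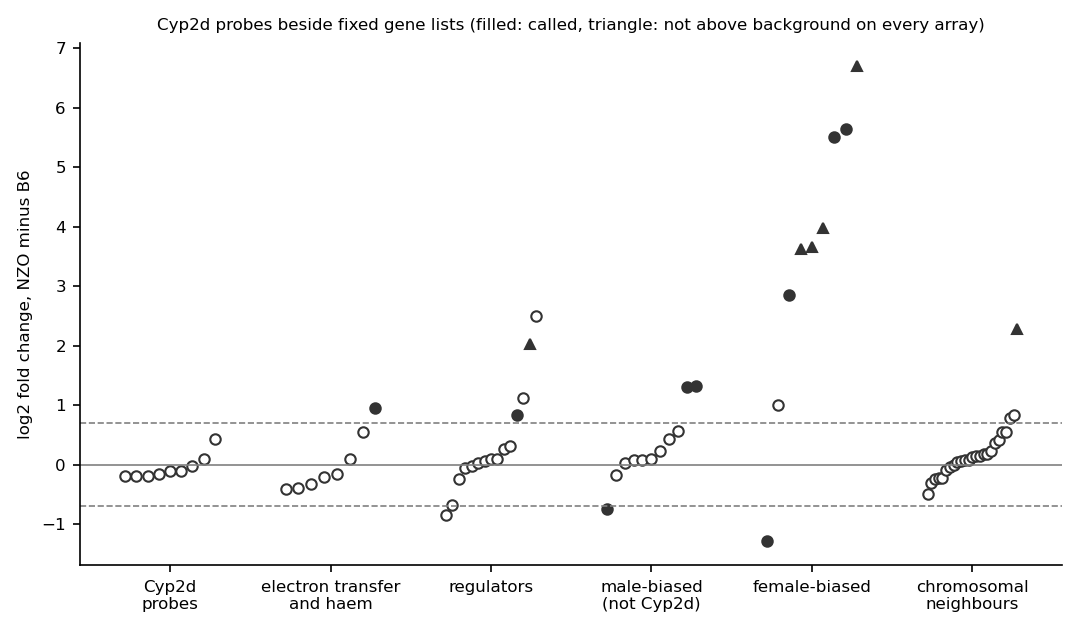
Log2 fold change (NZO minus B6, y axis) of the 9 Cyp2d probes and of the tested genes of 5 lists, 1 symbol per probe or gene; filled symbols passed both thresholds, triangles mark genes that were not above background on every array, and dashed lines stand at 0.7 in either direction. All Cyp2d symbols are open and lie between -0.20 and 0.44, whereas 8 of the 9 female-biased genes are filled.

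The chromosomal surroundings were examined as well. Of the genes that start within 500 kb of the first or last member, 25 were tested, of which 1 was higher and 0 lower, with a median log2 fold change of 0.12. The gene that passed was Shisa8 (adjusted p = 0.0343, limma), a dim probe that entered the test through NZO: it exceeded the background in 4 of 4 NZO mice and in 1 of 4 B6 mice, with measured means of -2.43 and -4.71, so that no exact fold is given. The count of neighbours higher in NZO changed under 14 of 24 alternatives and was 0 without NZO 003, 009 or 011 or B6 009; without NZO 007, 1 neighbour was lower. Serhl was nearest to the median (0.12, adjusted p = 0.436). None of the tested neighbours outside the family starts between the first and the last Cyp2d gene (0 genes). The pseudogenes of the family within the cluster had log2 fold changes of 0.07 (Cyp2d13, adjusted p = 0.824) and -0.18 (Cyp2d37-ps, adjusted p = 0.552).

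**Figure D5:**
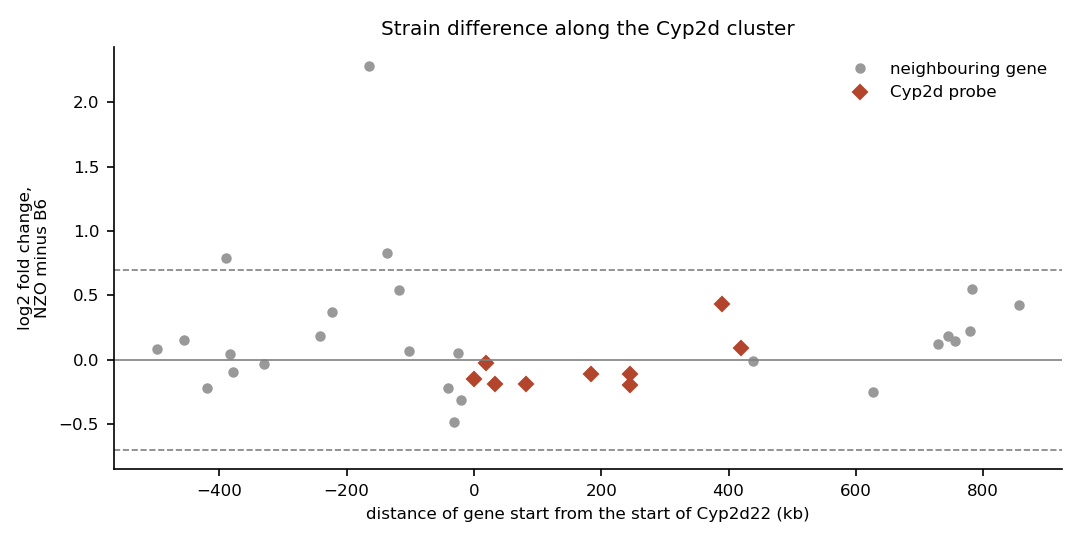
Log2 fold change (NZO minus B6, y axis) of the Cyp2d probes (diamonds) and of 25 neighbouring genes (circles) against the distance of the gene start from the start of Cyp2d22 (x axis, kb), with dashed lines at 0.7 in either direction. Cyp2d40 (0.44) and Cyp2d26 (0.09) at the right end of the cluster are the only members above 0 (Cyp2d26 at -0.15 in the deposited table, which is not scaled). The circle at the top is Shisa8, which was above background on 1 of 4 B6 arrays, so that its height is not an exact difference.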

How the data were processed

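The authors deposited the scanner output of 8 arrays and a table of the series. The deposited intensity values come from Agilent Feature Extraction (11.0.1.1 per the file headers, 9.1 per the labels), and the processed signal is background-subtracted and not scaled between arrays; the deposited table equalled the raw median intensity for all 59305 spots of each array (tolerance 0.01). Levels were log2 processed signals minus the 75th percentile of each array, without control and outlier spots, and averaged per probe. A probe was tested when 1 of the strains, or both, had it well above background in all 4 mice (27643 of 55681). limma 3.58.1 in R 4.3.3 compared NZO with B6, two-sided, with Benjamini-Hochberg adjustment over all probes; log2 fold changes of genes used the brightest tested probe. The thresholds for p and fold are those of the methods, applied here to the adjusted p. Probes were named through accession (27656), symbol (3401) or synonym (321) in the RefSeq gene table, and 24303 kept the name in the files. Sequences were processed with Python 3.11.15, pandas 2.3.3 and Biopython 1.88. The calculation was tested on simulated data.

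The members and the gene lists were chosen with earlier results of these data known. All members are named, together with the list genes past the thresholds, the gene nearest to each list's median and the 3 genes most similar to Cyp2d9 and to Cyp2d22. The exocrine pancreas, kidney, muscle, adipocyte and leukocyte markers served only as checks of the tissue. Alternatives were other background corrections, scalings, filters and tests, slide, scan day or mouse number in the model, and leaving out each mouse. The processed signal without scaling was added after seeing the data. The number of arrays limits the precision, and the labels do not say whether the mice came from separate litters. SNPs of NZO under the probes were not analysed here. Values of 2 list genes past the thresholds are not reported here; the list counts and medians include them.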

Additional observations from a re-analysis of the deposited data

Results flagged for a closer look

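Of 58 groups of 4 arrays examined (each strain for the 9 Cyp2d probes and the list genes past the thresholds), 4 held 1 array far from the other 3, while chance alone marks about 1 in 20 groups. One was a member: Cyp2d26 was at 9.63 in NZO 003, with 9.47, 9.48 and 9.47 in the other NZO mice. The others were Cyp4a12a at 4.96 in B6 009, C6 at 3.81 in NZO 009 and Itgax, a leukocyte marker, at -1.18 in B6 015. NZO 003 was also the array in which all 9 Cyp2d probes were above their strain mean.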

How the results depend on the processing

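The counts of 0 Cyp2d probes higher and 0 lower held under 24 of 24 alternatives. Cyp2d10, Cyp2d22 and Cyp2d40 kept their direction in all 24; Cyp2d40 ranged from 0.20 (no scaling) to 0.87 (slide as a fixed term), and its lowest adjusted p was 0.056, without NZO 009. Leaving out each mouse in turn moved Cyp2d9 between -0.28 and -0.09, Cyp2d40 between 0.32 (without NZO 003) and 0.53, and Cyp2d26 between 0.05 and 0.12. Cyp2d10 then lay between -0.22 and -0.11 (without NZO 009), Cyp2d12 between -0.20 and -0.027 (without NZO 007), Cyp2d22 between -0.23 and -0.074 (without NZO 007) and Cyp2d34 at base 762 between -0.29 and -0.079 (without NZO 009). Cyp2d11 ranged from -0.076 to 0.052 (without NZO 009) and the Cyp2d34 probe at base 1526 from -0.21 to 0.053 (without NZO 007), and both thereby changed sign. With the slide as a fixed term, Cyp2d9 (0.032), Cyp2d11 (0.10), Cyp2d12 (0.031) and Cyp2d34 at bases 762 (0.035) and 1526 (0.11) changed sign, because slide 1 alone then compares the strains. Cyp2d26 turned to -0.15 in the deposited table as given and to -0.14 in the processed signal without scaling, 2 settings that shift the median of all probes by -0.15 and -0.22. In the deposited table Cyp2d9 (-0.41), Cyp2d10 (-0.43) and Cyp2d34 at base 762 (-0.42) reached adjusted p values of 0.0322, 0.0237 and 0.0358 but not the fold threshold.

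The mouse numbers 009 and 011 occur in both strains, but they only name different animals, and the deviations of equally numbered arrays correlated with an r of -0.26 and -0.00, so no pairing was assumed. The number as a fixed replicate block left 72 probes higher and 134 lower among all probes and turned the Cyp2d34 probe at base 1526 to 0.059; as a random block it gave 1155 and 1394. For all probes, 1199 were higher and 1460 lower. Normexp gave 616 and 583, the deposited table as given 576 higher, its scaled version 832 lower, the slide as a fixed term 497 higher, the filter on all 8 arrays 964 lower, the methods' t-test after adjustment 890 lower, and the unscaled signal 771 and 2506. Leaving out 1 mouse gave 1072 to 1239 higher and 1227 to 1461 lower. Besides leaving out mice, the call of C6 was lost without the filter on dim probes, with the slide, scan day or mouse number in the model and with the adjusted t-test of the methods. That of Cyp2a4 was lost with the slide or the mouse number as a fixed term and with that t-test. Alad, Cyp4a12a and Cyp4a12b lost their calls with the mouse number as a fixed term. Fewer regulators passed in both unscaled signals, without the filter, with the filter on all 8 arrays, with the slide or mouse number as a fixed term and with that t-test. The count of neighbours higher in NZO was 0 with normexp, the deposited table as given, either other filter, the slide or mouse number as a fixed term and that t-test, and rose to 2 or 3 with the scan day as a term or with unadjusted p; 1 neighbour was lower with the slide as a fixed term. Beyond the construction of each alternative, the cause was not tested. Dim genes are limited by signal over background, which does not apply to the bright Cyp2d probes.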
